A study of Mus musculus with 22 samples.

Results

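The genes described here are 65 protein-coding mouse genes of pre-mRNA splicing, selected by the start of their symbol: Srsf, Hnrnp, Sf3a, Sf3b, Prpf or Snrp. They comprised 11 SR protein genes, 20 hnRNP genes, 3 SF3A genes, 6 SF3B genes, 13 Prpf genes and 12 Snrp genes. All 65 were present among the 55421 genes counted in monocytes, 21976 of them protein-coding, and among the 31134 genes counted in alveolar macrophages, 18783 of them protein-coding. The genes were proposed because many of them were seen to be lower in monocytes at 3 d, so their values in that comparison are a description of what chose them.

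Bulk RNA sequencing was performed on 22 samples of cells sorted from mouse lung digests. CD11b+ Ly6Chi monocytes gave 4 control samples, 4 samples at 3 d and 4 samples at 14 d after tamoxifen, and SigF+CD11b- alveolar macrophages gave 4, 3 and 3 samples, respectively. Every group, controls included, came from C57BL/6 mice carrying the SP-CI73T mutation, an isoleucine to threonine change in surfactant protein C, which is made by alveolar type 2 epithelial cells and not by the sorted cells. In the 3 d and 14 d groups, 1 oral dose of tamoxifen activated an estrogen receptor-controlled Flp-O recombinase placed at the Rosa26 locus, which removed a neomycin cassette and raised production of the mutant protein. The controls are labelled untreated, and the methods of the study pool as controls the oil-treated mutant mice and the tamoxifen-treated mutant mice without Flp-O. For the sequenced monocytes, the study describes the controls as oil-treated SP-CI73T mice. Which kind of control each macrophage sample came from is not given in the sources used here. The mice were adults of both sexes, and nothing in the labels says whether a sample was 1 animal or a pool. The p-values below therefore measure the spread between these samples.

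Introns are removed from pre-mRNA by the spliceosome, which is built anew on each intron from small nuclear ribonucleoproteins (snRNPs) and many other proteins. SR proteins bind exons and favour their recognition, hnRNPs coat nascent RNA and often favour exon skipping, Sm proteins form the ring at the heart of most spliceosomal snRNPs, SF3A and SF3B are parts of the U2 snRNP that holds the branch point, and several PRPF proteins belong to the U4/U6.U5 tri-snRNP. Most of these genes are active in every cell, so a shift of all of them on a relative scale can come with a change in the rest of the library as well as with a change in the genes themselves.

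Sequencing gave 15451460 to 28789639 counts per monocyte library and 4610720 to 17074863 per macrophage library. The macrophage libraries at 14 d were the shallowest, at 4610720 to 6838893 counts. The composition of the monocyte libraries differed at 3 d. From 40119 to 41134 genes had a count in each 3 d library against 24775 to 30865 in the controls and 24829 to 32492 at 14 d, and protein-coding genes took 90.9% to 93.4% of counts at 3 d against 96.3% to 96.9% in the controls. Sorted identity was checked on marker genes. All 8 classical monocyte markers were detected in each monocyte group. They summed to 10500 to 15800 CPM (counts scaled to a fixed library total) in the controls, 12000 to 14800 CPM at 3 d and 7850 to 11700 CPM at 14 d. All 9 alveolar macrophage markers were detected in each macrophage group, with summed levels of 24600 to 49100 CPM. Monocyte libraries also held alveolar macrophage markers, some of which monocytes express themselves. These summed to 7760 to 13300 CPM in the controls, 5280 to 11200 CPM at 3 d and 15700 to 19000 CPM at 14 d. In the 14 d monocyte libraries this sum was thus above that of the classical monocyte markers. Markers of T and NK cells summed to 300 to 1260 CPM in control monocytes, 21.3 to 328 CPM at 3 d and 17.8 to 39.1 CPM at 14 d. Xist, which marks female cells, had 552 to 4260 counts in every control and 3 d monocyte library and 1 to 6 counts in every 14 d monocyte library, and 4 Y-linked genes showed the opposite, with 0 to 3 counts against 1949 to 3033. The macrophage libraries were split in the same way, so at 14 d the time after tamoxifen and the sex of the mice cannot be told apart. Bulk libraries also cannot tell fewer cells of a type from less RNA per cell.

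The splicing factor genes took nearly the same share of each monocyte library in controls and at 3 d. The 65 genes together held 0.692%, 0.621%, 0.615% and 0.764% of all counts in the 4 control monocyte libraries. At 3 d they held 0.652%, 0.610%, 0.611% and 0.679%. The ranges overlapped, with 2 of the 4 libraries at 3 d within the range of the controls and the other two just below it. At 14 d the share in monocytes was 0.666%, 0.656%, 0.696% and 0.774%. In alveolar macrophages the share was 0.876%, 0.875%, 0.821% and 0.851% in controls, 0.885%, 0.935% and 0.950% at 3 d, and 1.14%, 0.987% and 1.32% at 14 d, so every treated macrophage library lay above every control library. The normalization factors moved in a different pattern. TMM, the trimmed mean of M values, sets a factor for each library so that most genes do not change between libraries. It gave 0.841 to 0.921 for control monocytes, 1.20 to 1.24 at 3 d and 0.882 to 0.994 at 14 d, and in macrophages 0.894 to 0.939 for controls, 0.898 to 0.950 at 3 d and 1.17 to 1.29 at 14 d. TMM-scaled CPM of a gene with an unchanged share of counts is thus lower at 3 d in monocytes and at 14 d in macrophages.

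**Figure D1:**
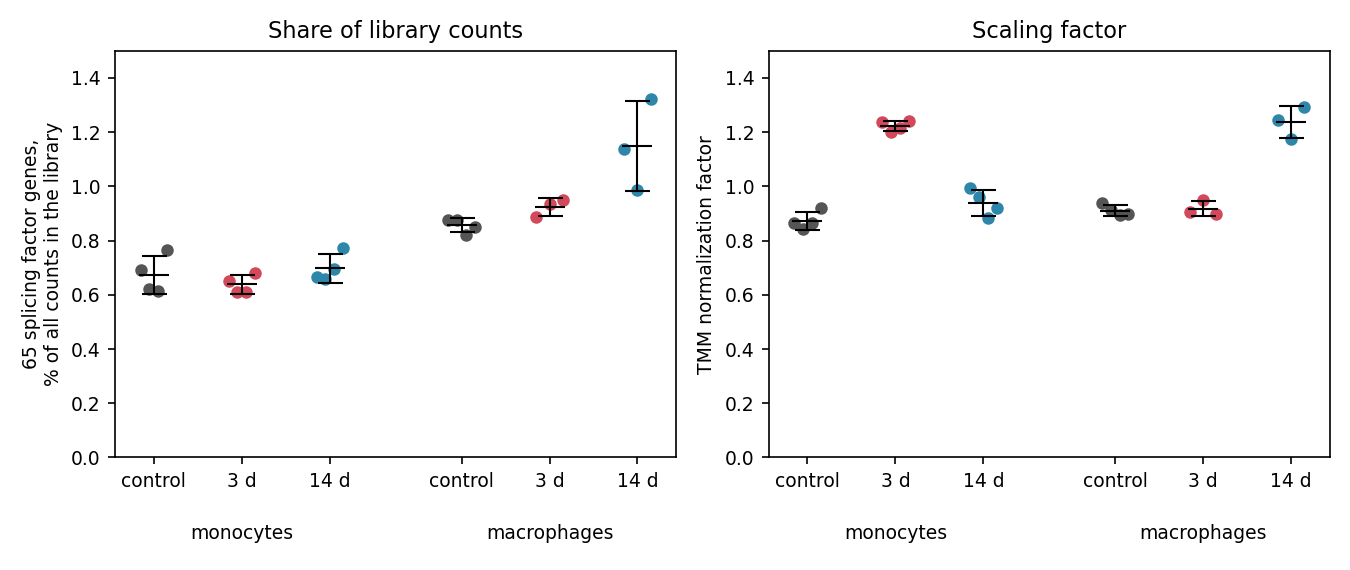
Share of all library counts held by the 65 splicing factor genes (left, in percent) and TMM normalization factor (right, no unit) in control, 3 d and 14 d libraries of monocytes and macrophages. Points are libraries, horizontal marks are means and bars are SD. The share at 3 d in monocytes (0.610% to 0.679%) overlapped the controls (0.615% to 0.764%), while the factor was 1.20 to 1.24 against 0.841 to 0.921.

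On the TMM scale, monocytes at 3 d showed lower levels of most splicing factor genes than control monocytes. Of 64 members tested, 18 were called lower and 1, Snrpn, was called higher, where a call is an adjusted p under 0.05 in edgeR's quasi-likelihood test and a fold change above 1.5. The median log2 fold change of the tested members was -0.44. Over all 22353 genes tested, 14.4% were called lower and 36.8% higher, with a median of 0.22. Nothing is read from the members' count, because this contrast chose them. The summed T and NK cell markers were 300, 438, 1260 and 1140 CPM in the controls and 21.3, 328, 44.3 and 52.4 CPM at 3 d, with all 9 markers detected, and their part in the differences was not tested. Other measures also stood apart from controls at 3 d without overlap. Mitochondrial genes took 2.10% to 3.62% of counts against 0.969% to 1.41%, and genes annotated as antisense 0.282% to 0.384% against 0.139% to 0.175%. The 6 fibroblast markers summed to 21.3 to 24.8 CPM against 4.70 to 12.1 CPM, and the 6 endothelial markers to 38.5 to 48.6 CPM against 14.3 to 31.1 CPM, with no marker at 0 in all libraries of a group. Their part was not tested either. The members were more abundant than most genes, with a mean log2 CPM above 5 for 50 of the 64. Of the 4436 genes of all kinds at that level, 42.0% were called lower and 1.15% higher, with a median log2 fold change of -0.55. The 50 members at that level had 17 called lower and a median of -0.49. The gap between these medians was 0.056.

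The size of this fall depended on the scaling. The 7 scalings run were TMM on all tested genes, DESeq2 size factors, TMM on protein-coding genes, scaling on 8 reference complexes of housekeeping function, upper quartile, library size, and TMM with factors from genes above a log2 CPM of 5. In that order, the median log2 fold change of the members was -0.44, -0.31, -0.29, -0.17, -0.04, 0.04 and 0.08. With factors from the genes above a log2 CPM of 5, 1 member was called lower and 3 higher, against 1.96% of all genes lower and 44.2% higher. Members and other genes of the same level shifted together, as a scaling moves all genes nearly alike. The median of the 50 members above a log2 CPM of 5 lay 0.034 to 0.059 above that of all genes at that level in the scalings and other settings run, which again is a description in the contrast that chose the members. Rank within the library does not depend on a scaling factor. The median member ranked between 2708 and 2833 among protein-coding genes in the control libraries, counted from the most abundant, and between 2497 and 2660 at 3 d, a higher position in all 4 libraries. The ratio of member counts to those of a reference list does not depend on it either, and it mostly moved the other way. Over the proteasome it was 0.8145 to 1.074 in controls and 0.7189 to 0.8122 at 3 d, without overlap. Its mean was also lower at 3 d over each other reference list except nucleoporins (12.3 and 12.65), with overlap in all of these. The median of the group changed sign between scalings, and Srsf5 was the only member called lower under all 7 of them. The share of all genes called lower under all 7 is not given here, so this is a description, in the contrast that chose the members.

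**Figure D2:**
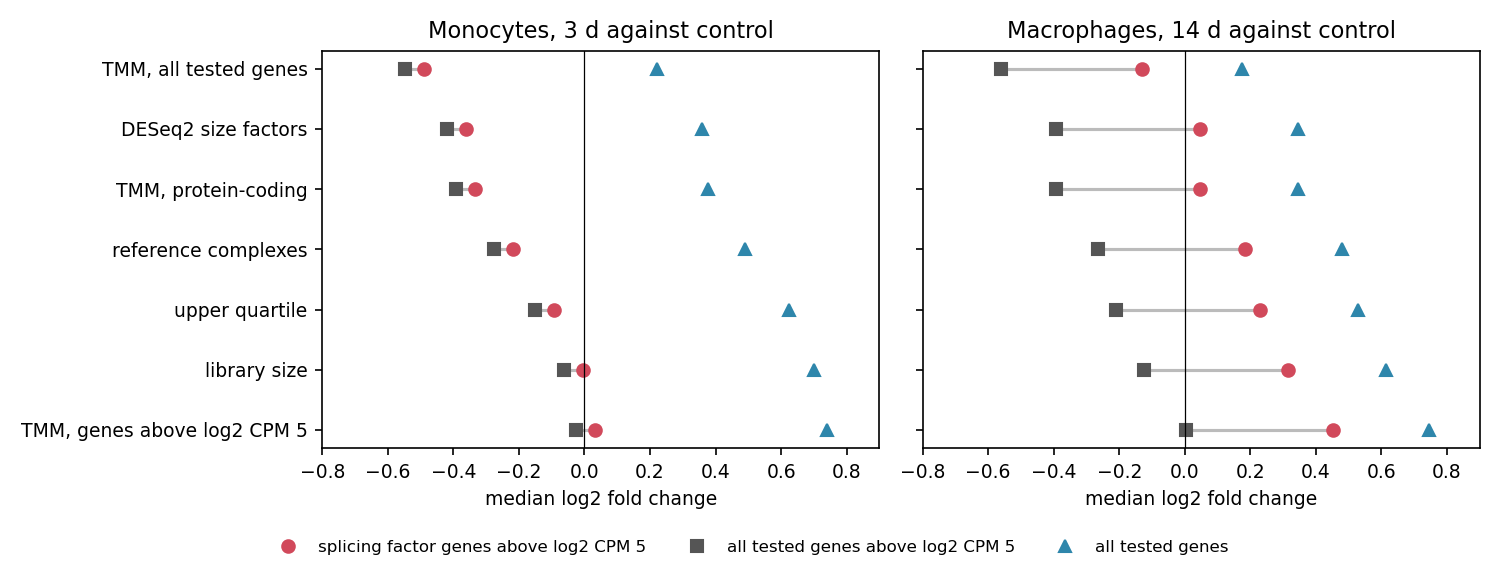
Median log2 fold change of the splicing factor genes with a mean log2 CPM above 5 (red circles), of all tested genes at that level (grey squares) and of all tested genes (blue triangles) under different scalings, one per line, for monocytes at 3 d (left) and macrophages at 14 d (right) against their controls. In monocytes the median of the splicing factor genes ran from -0.49 to 0.031 and that of all genes of their level from -0.55 to -0.026, and both move together because each scaling shifts all genes nearly alike.

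Among SR protein genes, 3 of the 10 tested were called lower at 3 d in monocytes, with a median log2 fold change of -0.47. Srsf5, an SR protein gene that responds to growth factor signals in several cell types, had the largest fall of any member. Its TMM-scaled level was 426, 290, 280 and 443 CPM in the 4 controls and 162, 147, 146 and 200 CPM at 3 d. All 4 libraries at 3 d lay below all 4 controls. At 14 d it was 253, 233, 364 and 387 CPM, between and across the others. The log2 fold change at 3 d was -1.14 (SE 0.206, adjusted p = 0.00112) and ran from -1.14 to -0.62 over the 7 scalings, each of which called it lower, as did each fit without 1 library. On library size alone the levels were 368, 244, 242 and 407 CPM in controls and 199, 175, 176 and 247 CPM at 3 d, and the highest library at 3 d then exceeded the lowest controls. Its rank among protein-coding genes was 352 to 643 in controls and 599 to 857 at 3 d. Srsf5 is on chromosome 12 at 80945504 to 80950507 (GRCm38, plus strand).

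Srsf3 and Srsf7, the other SR protein genes of highest level, differed less. Srsf3 had 283, 247, 271 and 279 CPM on the TMM scale in controls and 158, 173, 194 and 244 CPM at 3 d. Its groups did not overlap on this scale, and the log2 difference was -0.49, against 0.00 by library size. Srsf7 had 156, 140, 134 and 164 CPM in controls and 93.0, 93.6, 119 and 125 CPM at 3 d, again without overlap, and the log2 difference was -0.46, against 0.02 by library size. Neither reached the fold change required for a call. Srsf12 was not tested in either cell type, since its highest count was 28. Its monocyte counts were 2, 1, 0 and 0 in controls, 28, 19, 10 and 6 at 3 d and 2, 2, 1 and 1 at 14 d, so every library at 3 d was above every other monocyte library. Its macrophage counts were 5, 3, 6 and 1 in controls, 2, 5 and 1 at 3 d, and 11, 7 and 1 at 14 d.

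Srsf5 and Prpf8 had 2 of the 3 largest falls at 3 d in monocytes, and the groups of Sf3b2 did not overlap on either scale there. Prpf19 rose in macrophages at 14 d. For these 4 members, the stretches before the RefSeq start are shown as an illustration. Each is 150 bases, 5′ to 3′ on the strand of the gene, from RefSeq on GRCm38.p6. Capitals mark 3 motifs, each searched on both strands. The first is CCGGAAGT, of the kind bound by ETS factors. Another is GGGCGG, known as a GC box and bound by SP factors. The last is CCAAT, named as it is spelled and bound by NF-Y. The last GC box of Srsf5 overlaps its last ETS-type match.
Srsf5, chr12:80945349-80945498, plus strand: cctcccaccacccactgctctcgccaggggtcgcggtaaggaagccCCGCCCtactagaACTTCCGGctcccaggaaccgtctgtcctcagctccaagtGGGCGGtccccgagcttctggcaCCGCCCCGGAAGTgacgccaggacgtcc
Prpf8, chr11:75486627-75486776, plus strand: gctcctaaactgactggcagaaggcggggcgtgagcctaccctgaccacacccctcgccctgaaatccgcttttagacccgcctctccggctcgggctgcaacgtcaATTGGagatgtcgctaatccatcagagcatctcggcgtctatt
Sf3b2, chr19:5295458-5295607, minus strand: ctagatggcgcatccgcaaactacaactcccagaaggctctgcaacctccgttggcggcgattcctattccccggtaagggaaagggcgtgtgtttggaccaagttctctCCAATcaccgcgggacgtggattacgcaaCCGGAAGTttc
Prpf19, chr19:10895081-10895230, plus strand: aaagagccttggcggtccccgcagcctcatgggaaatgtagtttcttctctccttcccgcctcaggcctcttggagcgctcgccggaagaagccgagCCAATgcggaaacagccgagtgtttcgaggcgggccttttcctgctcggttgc
Srsf5 had 2 matches to CCGGAAGT, Sf3b2 had 1, and the stretches of Prpf8 and Prpf19 had none. In the 250 bases before the start, this motif was found in 13% of the 77 windows of the 57 members with a RefSeq window, against 3.97% of 20150 windows of protein-coding genes and 2.88% of all 32851 windows. It was found for Hnrnpd, Hnrnpf, Prpf4b, Sf3a3, Sf3b2, Srsf4, Srsf5 and Srsf11. GGGCGG was found in 62.3% of member windows against 44.1% of protein-coding windows, CCAAT in 45.5% against 35.0%, TGACGT in 15.6% against 7.57%, and TATAAA in 7.79% against 11.2%. The motifs were chosen for this description, and several windows can belong to 1 gene. The start of the Srsf5 stretch lies within Gm20337, a noncoding gene on the other strand.

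Of the 20 hnRNP genes, 5 were called lower at 3 d in monocytes, with a median log2 fold change of -0.49. Hnrnpk, which encodes an hnRNP that binds C-rich RNA, was the most abundant member of this family, with 1082, 991, 746 and 843 CPM in controls and 557, 448, 426 and 651 CPM at 3 d. Its groups did not overlap on the TMM scale, with a log2 fold change of -0.81 (SE 0.170), but by library size the change was -0.32 and the groups overlapped. Hnrnph1, which binds G-rich RNA, had 80.1, 58.1, 54.4 and 89.7 CPM in controls and 32.1, 31.5, 45.5 and 43.0 CPM at 3 d. All libraries at 3 d were below all controls, with a log2 fold change of -0.89 (SE 0.200) on the TMM scale and -0.41 by library size. Hnrnpf, a close relative, had a log2 fold change of -0.69 (SE 0.168), and Hnrnpa2b1, a core hnRNP, had -0.49 (SE 0.168), which was not called. Both were close to 0 or small by library size, at -0.20 and 0.00. Hnrnph2, the only member on the X chromosome, had 206, 172, 121 and 167 CPM in controls and 95.4, 77.5, 81.9 and 127 CPM at 3 d. The highest library at 3 d exceeded the lowest control, and the log2 fold change of -0.80 on the TMM scale was -0.31 by library size.

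SF3A and SF3B, which make up most of the protein of the U2 snRNP, had 1 of 3 and 4 of 6 genes called lower at 3 d in monocytes, with median log2 fold changes of -0.56 and -0.67. Sf3b1, whose protein grips the branch point and which is mutated in several blood cancers, had 568, 505, 383 and 531 CPM in controls and 251, 282, 263 and 325 CPM at 3 d, with no overlap. Sf3b2, its partner in SF3B, had 232, 218, 227 and 194 CPM in controls and 136, 142, 120 and 141 CPM at 3 d on the TMM scale. It had 200, 183, 197 and 179 CPM in controls and 167, 170, 145 and 173 CPM at 3 d by library size, so that its groups were apart on both scales, with log2 fold changes of -0.69 (SE 0.114) and -0.20. Sf3a2 had a log2 fold change of -0.76, Sf3a3 -0.56 and Sf3a1 -0.47 on the TMM scale, of which Sf3a2 alone was called. Sf3b6, a small SF3B subunit at the branch point, had 223, 215, 195 and 227 CPM in controls and 164, 207, 192 and 170 CPM at 3 d, with overlap and a log2 fold change of -0.23.

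Among the 13 Prpf genes, 4 were called lower at 3 d in monocytes, with a median log2 fold change of -0.40. Prpf8 (chromosome 11, 75486816 to 75509449, plus strand), the large U5 protein at the centre of the spliceosome, had 110, 103, 118 and 114 CPM in controls and 67.0, 51.2, 58.9 and 63.9 CPM at 3 d. By library size it had 94.9, 86.8, 102 and 105 CPM in controls and 82.4, 61.1, 70.9 and 78.7 CPM at 3 d. Its groups were apart on both scales, with log2 fold changes of -0.88 (SE 0.132) and -0.40, but the second missed the fold change required for a call. Prpf8 and Sf3b2 were the only members whose groups did not overlap, with 3 d lower, on both scales. By library size alone, 2 of the 64 members and 2.49% of all genes tested were lower without overlap. With TMM factors, 23 members and 14.5% of all genes were. The share of all genes apart on both scales is not given here, and nothing is read from these counts in the contrast that chose the members. Prpf19, a ubiquitin ligase needed for activation of the spliceosome, had a log2 fold change of -0.31 (SE 0.152), which was not called.

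The Snrp genes differed least from controls at 3 d in monocytes on the TMM scale, and this order is given for that scale alone. Of 12 genes, 1 was called lower and 1 higher, with a median log2 fold change of -0.10. The 7 genes of the Sm ring had a median of 0.01 on the same scale. Snrpb, which encodes the Sm proteins B and B′, was the one called lower, with 561, 519, 551 and 505 CPM in controls and 300.4, 334, 370.4 and 354 CPM at 3 d. Its log2 fold change was -0.65 (SE 0.109) on the TMM scale and -0.17 by library size. The smaller Sm proteins did the opposite by library size. Snrpg had 102, 103, 107 and 125 CPM by library size in controls and 168, 195, 184 and 126 CPM at 3 d, with all libraries at 3 d above all controls. With TMM factors it had 118, 123, 124 and 136 CPM in controls and 137, 163, 153 and 102 CPM at 3 d, with overlap. Its log2 fold change was 0.15 on the TMM scale, 0.63 by library size and 0.67 with factors from the genes above a log2 CPM of 5, and the last 2 were called higher. Snrpd1, Snrpe and Snrpg were above all controls by library size in all 4 libraries at 3 d, as were 43.6% of all genes. Snrpe had log2 fold changes of 0.01 on the TMM scale and 0.50 by library size, and Snrpd3 had -0.19 and 0.29. Among reference complexes outside splicing, the median log2 fold change on the TMM scale ran from -0.55 for 20 nucleoporins to -0.16 for 45 subunits of respiratory complex I, against -0.67 for SF3B to -0.10 for the Snrp genes.

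Snrpn, an imprinted gene for a Sm B-like protein found mainly in brain, was called higher at 3 d in monocytes on very few reads. Its counts were 1, 13, 5 and 0 in controls, 32, 49, 5 and 37 at 3 d and 2, 7, 1 and 3 at 14 d. One library at 3 d was within the range of the controls. The log2 fold change was 2.59 (SE 0.954, adjusted p = 0.0323), and the call was kept in 8 of the 12 fits without 1 library. It was lost without control replicate 1 (2.20), control replicate 3 (2.50), 3 d replicate 2 (2.32) or 3 d replicate 4 (2.44). Its exons overlap those of Snurf and Gm38393 on the same strand, and 16.7% of its 100-base sequences occur in other genes, so its counts could be split or shared.

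**Figure D3:**
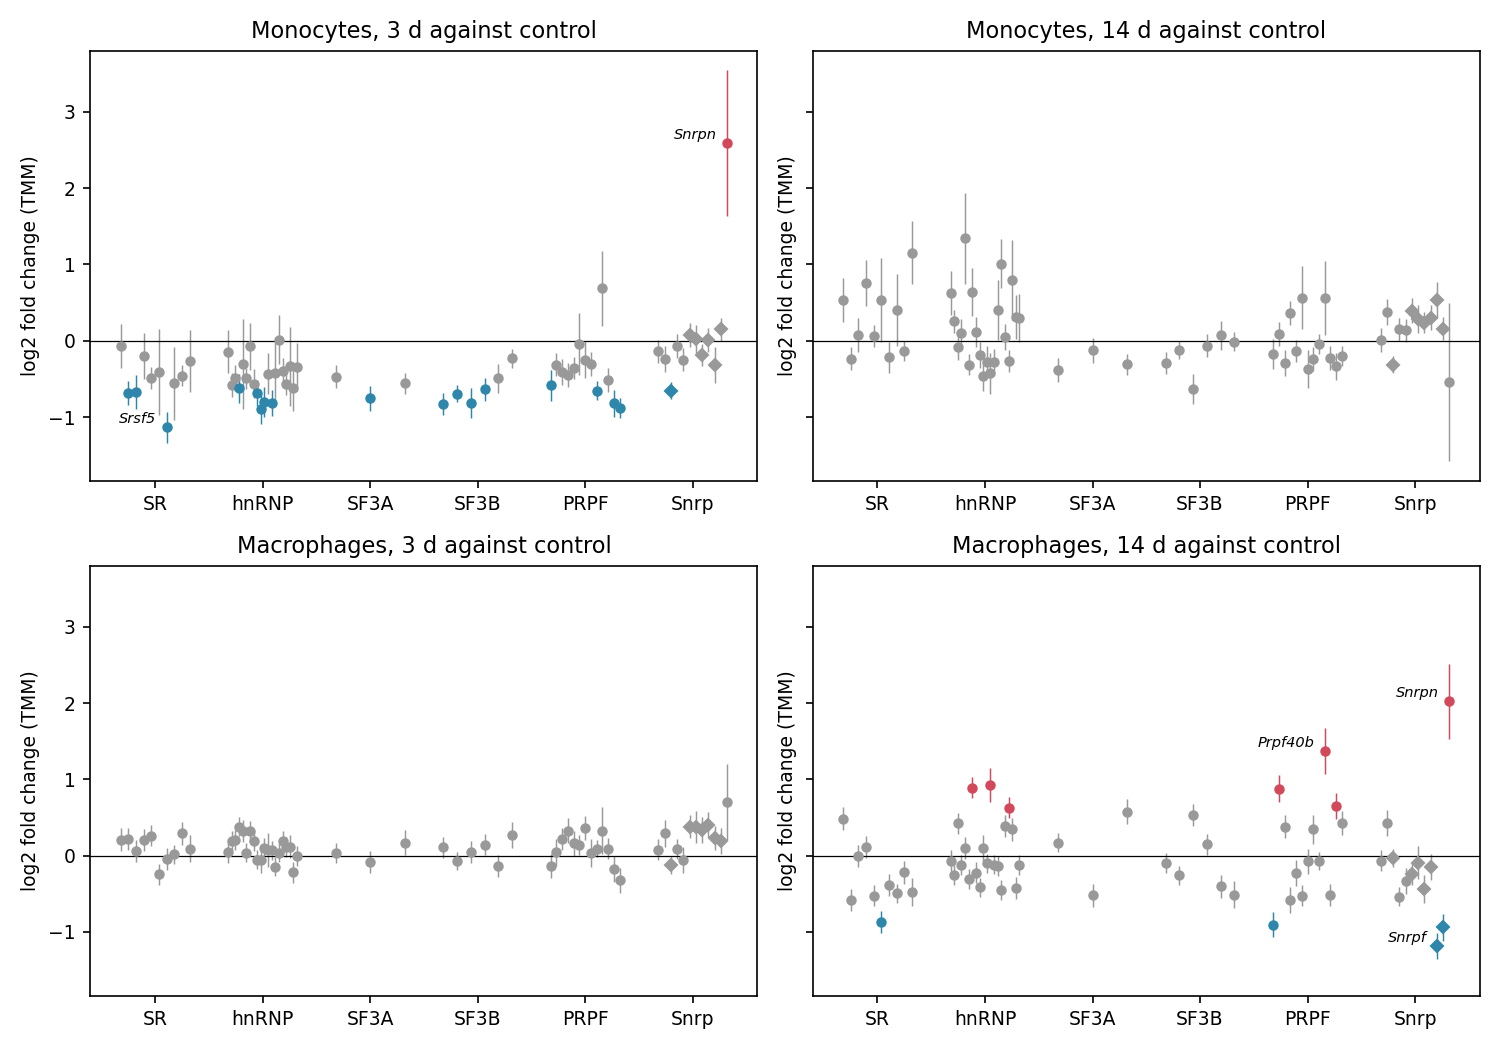
Log2 fold change on the TMM scale of each tested splicing factor gene, by family, for monocytes (top) and macrophages (bottom) at 3 d (left) and 14 d (right) against control. Red points were called higher, blue points were called lower and grey points were not called. Diamonds are genes of the Sm ring and bars are SE. In monocytes at 3 d, 18 genes were called lower and 1 higher, and in macrophages at 14 d 4 were called lower and 7 higher.

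Other genes of splicing were tested at 3 d in monocytes as well. Of 137 genes tested from 10 further lists, 51 were called lower and 1 higher, with a median log2 fold change of -0.48. Among all genes tested 14.4% were called lower, and among all genes above a log2 CPM of 5 this was 42.0%, with a median of -0.55. With factors from those genes, 1 of the 137 was called lower and 6 higher, and the median was 0.04. The 24 genes of the PRP19 complex and catalytic step had 13 called lower (median -0.60), the 13 SR-related factors 7 (-0.64), the 18 partners of the U1 and U2 snRNPs 9 (-0.56), the 7 SR protein kinases 4 (-0.61) and the 25 other splicing regulators 9 (-0.57). The 12 partners of the tri-snRNP and U5 had 4 called lower (-0.38), the 10 genes of the minor spliceosome 2 (-0.46), the 13 of the SMN complex and Sm assembly 2 (-0.28), the 8 of the exon junction complex 1 (-0.54) and the 7 of the Lsm ring 0 (-0.32). The Lsm ring binds the tail of U6 snRNA and, for those 7 genes, edgeR gave 3 with an unadjusted p under 0.05, all lower. The share of all genes at that unadjusted p is not given here.

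Mbnl1, a regulator of exon choice in differentiating cells, had 876, 628, 368 and 446 CPM in controls and 250, 291, 215 and 292 CPM at 3 d. Son, a scaffold protein of nuclear speckles, had 238, 199, 213 and 311 CPM in controls and 96.9, 107, 131 and 113 CPM at 3 d. The groups did not overlap for either gene, and both were called lower on the TMM scale, by -1.15 (SE 0.230) and -1.10 (SE 0.159), and by library size, by -0.65 and -0.62. Sf1, which binds the branch point before the U2 snRNP, had 169, 204, 222 and 202 CPM in controls and 93.0, 99.9, 101 and 93.7 CPM at 3 d. Its log2 difference was -1.04 (SE 0.146) on the TMM scale, where it was called, and -0.55 by library size, where it was not. Rbfox2, a tissue-restricted regulator of alternative exons, was the one called higher, at levels near the limit of detection, since 3 counts correspond to 0.104 to 0.194 CPM in these libraries. It had 0.166, 0.0538, 0.121 and 0.122 CPM in controls, 1.30, 1.12, 1.61 and 2.49 CPM at 3 d and 0.696, 0.592, 0.532 and 0.202 CPM at 14 d.

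At 14 d, no member was called in monocytes against control. edgeR gave 9 members higher and 6 lower at an unadjusted p under 0.05, and DESeq2 called 2 higher. The share of all genes at that unadjusted p is not given here, so nothing is read from these counts. The median log2 fold change was 0.06, against 0.09 over all genes tested, of which 5.34% were called lower and 3.22% higher. Above a log2 CPM of 5, the median was -0.073 for all genes and 0.032 for the members. The members at that level lay 0.10 to 0.11 above all genes there in the scalings and other settings run. Without control replicate 4, edgeR called 3 members higher and 1 lower. Without the 3 d replicate 4 it called 1 in each direction, and without the 14 d replicate 1 it called 1 higher. Most abundant members were close to their control levels. Hnrnpk had 760, 598, 793 and 871 CPM, Sf3b1 387, 379, 389 and 468 CPM, and Prpf8 82.8, 99.3, 97.8 and 108 CPM on the TMM scale. Each of these 3 overlapped its controls, and the log2 fold changes were -0.28, -0.29 and -0.20, with adjusted p between 0.252 and 0.406. Snrpb had 434, 448, 424 and 412 CPM, all below the 4 controls, with a log2 fold change of -0.31 (adjusted p = 0.0931). Outside the members, Smn1, whose product assembles Sm rings on snRNA, rose from 26.9, 26.5, 29.0 and 24.0 CPM in controls to 44.6, 44.7, 49.2 and 44.3 CPM, a log2 fold change of 0.78 (SE 0.137, adjusted p = 0.00207). Clk3, a kinase of SR proteins, fell from 125, 137, 93.4 and 96.3 CPM to 66.7, 52.8, 62.1 and 75.8 CPM, a log2 fold change of -0.81 (SE 0.164, adjusted p = 0.00564). Cwc25 and Nono were also called lower, by -0.77 and -0.69, and Rbfox2 higher. In all, 2 of the 137 other splicing genes were called higher and 6 lower.

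Set against 3 d, the 14 d monocytes had 17 members called higher and 1, Snrpn, called lower, with a median log2 fold change of 0.51. This comparison uses the same 3 d samples as the first. Of all genes tested, 12% were called higher and 34.5% lower. Above a log2 CPM of 5, the median was 0.46 for all genes and 0.49 for the members, a gap of 0.027. With factors from the genes above that level, the median of all tested members was 0.04. No member was then called higher and Snrpn was called lower. The count of 18 became 30 without the 14 d replicate 1 and 11 without either the 3 d replicate 3 or the 14 d replicate 4. Outside the members, Son and Srrm2, both of nuclear speckles, were higher at 14 d than at 3 d by 1.14 and 1.05 on the log2 scale. Hnrnpab, Srsf9 and Hnrnpll had the largest differences among those called higher, with log2 fold changes of 1.65 (SE 0.604), 1.42 (SE 0.411) and 1.00 (SE 0.324). Hnrnpab, an hnRNP of the A/B type, had 15.8, 18.9, 42.6 and 78.2 CPM in controls, 41.6, 35.0, 33.0 and 16.4 CPM at 3 d and 28.1, 64.9, 126 and 175 CPM at 14 d. The 14 d libraries were spread widely and overlapped both other groups. Srsf9 had 13.3, 10.8, 22.8 and 34.5 CPM in controls, 16.9, 15.7, 24.2 and 11.3 CPM at 3 d and 20.8, 37.4, 48.2 and 75.2 CPM at 14 d. Hnrnpll, which controls exon choice in the CD45 gene of T cells, had 18.8, 30.5, 31.7 and 54.4 CPM in controls, 46.8, 35.7, 36.8 and 17.5 CPM at 3 d and 46.2, 70.0, 70.5 and 86.4 CPM at 14 d. The call of Hnrnpab was lost without any of the 3 d libraries or without the 14 d replicate 3 or 4, with values of 1.16 to 1.76, and that of Hnrnpll without the 3 d replicate 3 (0.96) or the 14 d replicate 4 (0.81). In control macrophages, which were counted and scaled separately, these 3 genes stood higher, at 439 ± 45.1, 88.6 ± 9.83 and 110 ± 13.9 CPM (SD, n = 4). So did the median member, at a log2 CPM of 6.594 to 6.655 against 5.965 to 6.086 in control monocytes. Genes annotated as antisense took 1.35% to 1.39% of counts in control macrophages against 0.139% to 0.175% in control monocytes, so levels of the 2 cell types may not compare directly. The summed alveolar macrophage markers were 13300, 7910, 10200 and 7760 CPM in control monocytes, 10400, 5280, 9210 and 11200 CPM at 3 d and 15700, 18400, 18800 and 19000 CPM at 14 d, with all 9 markers detected and none at 0. Their part in these differences was not tested.

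In alveolar macrophages at 3 d, no member was called in either direction. edgeR gave 6 members higher and 0 lower at an unadjusted p under 0.05, and DESeq2 called none. The share of all genes at that unadjusted p is not given here, so nothing is read from the 6. The median log2 fold change was 0.11, and across the 7 scalings no member was called. Of all 20944 genes tested, 0.224% were called lower and 1.05% higher. Without the 3 d replicate 2, 2 members were called higher. Srsf5 had 325, 277, 249 and 253 CPM in control macrophages and 243, 327 and 233 CPM at 3 d, with overlap. Prpf8 had 280, 275, 327 and 323 CPM in controls and 222, 257 and 242 CPM at 3 d, all 3 below the controls. Its log2 fold change was -0.33 (SE 0.159, edgeR adjusted p = 0.374). On the TMM scale 2 members, Prpf8 and Hnrnpl, lay below all controls and 8 lay above, against 7.16% and 6.85% of all genes. Hnrnpa3, which binds nascent RNA, was the member with the smallest p, at a log2 fold change of 0.38 (SE 0.130, adjusted p = 0.175), and was picked after its values were seen. The monocyte and macrophage responses at 3 d stand side by side here, and their difference was not tested.

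At 14 d, alveolar macrophages had 7 members called higher and 4 called lower against control, with a median log2 fold change of -0.12. Of all genes tested, 39.4% were called higher and 22.9% lower, and of the 5553 genes above a log2 CPM of 5, 5.17% were called higher and 47.8% lower, with a median of -0.56. The 58 members at that level had 4 called in each direction and a median of -0.13, and lay 0.43 to 0.45 above the median of all genes at that level in the scalings and other settings run. Their share of all counts was higher than in each control library, as given above. With factors from the genes above a log2 CPM of 5, 22 members were called higher and 1 lower, against 49.8% and 5.9% of all genes, and the median was 0.46. The direction of the median thus flips between scalings, from -0.12 with TMM to 0.06 with DESeq2, 0.19 with the reference complexes and 0.33 by library size. Omission of 1 library gave 12 to 24 calls, with the most, 19 lower and 5 higher, without the 3 d replicate 2. These libraries also differed from controls in markers of other cells. The 8 neutrophil markers summed to 577 to 2020 CPM at 14 d against 107 to 211 CPM in controls, the 6 fibroblast markers to 180 to 432 CPM against 14.7 to 21.5 CPM, and the 4 eosinophil markers to 32.9 to 137 CPM against 0.595 to 1.73 CPM, with every marker of the 3 lists detected at 14 d and none at 0 in all libraries of a group. The 6 endothelial markers summed to 48.8 to 65.5 CPM against 8.31 to 18.6 CPM, and the 8 classical monocyte markers to 575 to 730.0 CPM against 302 to 360.0 CPM. Mitochondrial genes took 2.33% to 3.95% of counts against 1.76% to 2.05% in controls, and protein-coding genes 92.4% to 94.0% against 95.5% to 96.2%. The part of these measures in the results was not tested.

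The 7 members that rose were called in each of the 7 scalings. Of all genes, 39.4% were called higher with TMM and 49.8% with factors from the genes above a log2 CPM of 5. The share called in all 7 scalings is not given here, so nothing is read from the members' count. Prpf19 (chromosome 19, 10895231 to 10909559, plus strand) had 103, 101, 111 and 115 CPM in controls, 117, 94.3 and 121 CPM at 3 d and 192, 141 and 260.0 CPM at 14 d. All 3 libraries at 14 d lay above all others, with a log2 fold change of 0.88 (SE 0.173, adjusted p = 0.000449) and a range of 0.88 to 1.48 over the scalings. Hnrnph3, a smaller relative of Hnrnph1, had 16.4, 14.8, 15.9 and 17.1 CPM in controls, 13.5, 19.8 and 17.3 CPM at 3 d and 28.1, 19.9 and 43.8 CPM at 14 d. Its log2 fold change was 0.92 (SE 0.222, adjusted p = 0.00181), and it rose in all 3 libraries against the controls. Prpf40b, whose product is tied to the U1 snRNP, had 3.49, 2.97, 2.10 and 3.92 CPM in controls and 8.07, 8.70 and 7.44 CPM at 14 d, with a log2 fold change of 1.37 (SE 0.305, adjusted p = 0.00108). Snrpn had 4, 9, 7 and 14 counts in controls, 13, 13 and 9 at 3 d and 19, 17 and 14 at 14 d in libraries of lower depth, with a log2 fold change of 2.02 (SE 0.491, adjusted p = 0.00198). Hnrnpd, Hnrnpr and Prpf6, named after their values were seen, rose by 0.89, 0.63 and 0.65. The calls of Hnrnpr and Prpf6 were kept in 5 and 6 of the 10 fits without 1 library. Without the 14 d replicate 3, which had the highest level of each, the changes of Prpf19 and Hnrnph3 were 0.57 and 0.52 and no longer passed.

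The genes of 2 small Sm proteins, Snrpf and Snrpg, fell in macrophages at 14 d. Snrpf (chromosome 10, 93583029 to 93589706, minus strand) had 39.2, 50.02, 36.1 and 36.7 CPM in controls, 53.0, 38.3 and 51.2 CPM at 3 d and 17.7, 20.04 and 15.6 CPM at 14 d. All 3 libraries at 14 d lay below every control and every 3 d library. The log2 fold change was -1.18 (SE 0.175, adjusted p = 4.71e-05), and the 7 scalings, at -1.18 to -0.62, all called it lower, as did all 10 fits without 1 library. Snrpf shares 567 exonic bases with Ccdc38 on the other strand, and 16.1% of its 100-base sequences occur in a processed pseudogene. Snrpg had 47.9, 54.1, 48.8 and 41.5 CPM in controls, 55.1, 46.8 and 62.5 CPM at 3 d and 28.2, 29.0 and 17.6 CPM at 14 d, again with no overlap. Its log2 fold change was -0.94 (SE 0.179, adjusted p = 0.000347), and 5 of the 7 scalings called it lower. Prpf18, which acts at the second step of splicing, had 42.0, 41.8, 47.5 and 50.7 CPM in controls and 26.1, 26.7 and 19.95 CPM at 14 d, with a log2 fold change of -0.90 (SE 0.166). Srsf4, the fourth gene called lower and named for that reason, had a log2 fold change of -0.87 (SE 0.143). These 2 were called lower in 4 and 3 of the 7 scalings.

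**Figure D4:**
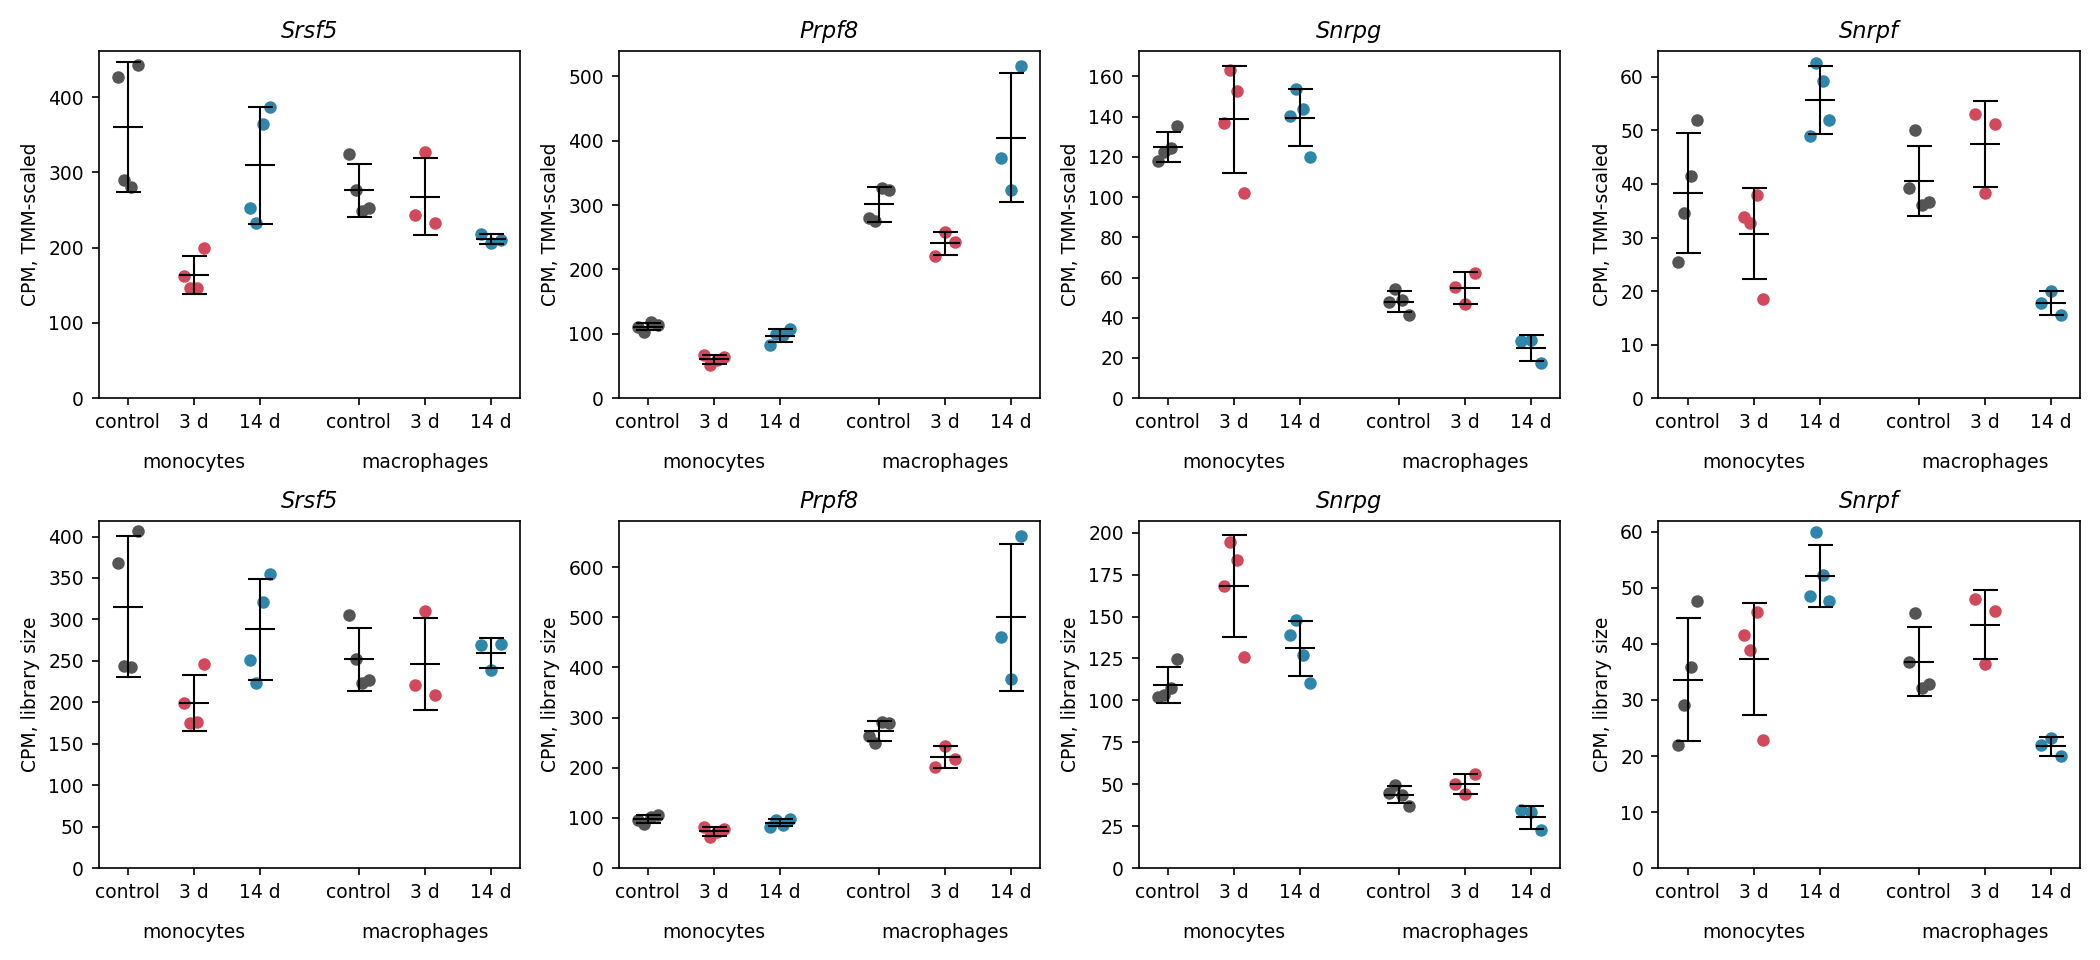
Levels of Srsf5, Prpf8, Snrpg and Snrpf in every library, as CPM scaled by TMM (top) and by library size (bottom), in control, 3 d and 14 d libraries of monocytes and macrophages. Points are libraries, horizontal marks are means and bars are SD. Srsf5 in monocytes at 3 d (146 to 200 CPM on the TMM scale) lay below its controls (280.1 to 443 CPM), and Snrpf in macrophages at 14 d (15.6 to 20.04 CPM) lay below its controls (36.1 to 50.02 CPM) on both scales.

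Set against the 3 d macrophages, which are shared with the earlier comparison, the 14 d macrophages had 6 members called higher and 13 called lower. The median log2 fold change was -0.21, where 36.3% of all genes were called higher and 20% lower. Above a log2 CPM of 5, the median was -0.50 for all genes and -0.24 for the members. Without the 3 d replicate 2, 28 members were called lower and 2 higher. Snrpf and Snrpg were lower in each of the 7 scalings, and Prpf6, Prpf8, Prpf19, Prpf40b, Hnrnph3 and Snrpn were higher in each. The share of all genes called in each scaling is not given here. Prpf31, a tri-snRNP protein that is mutated in retinitis pigmentosa, had 102, 68.5 and 98.1 CPM at 3 d and 41.3, 57.8 and 43.3 CPM at 14 d, with a log2 fold change of -0.91 (SE 0.177, adjusted p = 0.000699) on the TMM scale and -0.48 by library size. Of 138 other splicing genes at 14 d against control, 4 were called higher and 31 lower, and the median was -0.21. In that comparison 39.4% of all genes were called higher and 22.9% lower, and above a log2 CPM of 5 these were 5.17% and 47.8%. Rbfox2 rose from 4.79, 5.78, 2.75 and 2.72 CPM in controls to 29.8, 25.2 and 49.0 CPM, with a log2 fold change of 3.11 (SE 0.327). Prmt5, which methylates Sm proteins, and Celf1, a regulator of exon choice, rose by 0.95 and 0.65. Zrsr1, a U2AF1-like factor of the minor spliceosome, fell from 19.5, 15.1, 19.3 and 18.8 CPM to 5.33, 9.33 and 4.23 CPM, a log2 fold change of -1.51 (SE 0.260). Magohb, of the exon junction complex, and Lsm8, of the nuclear Lsm ring, fell by 1.32 and 1.17 on the log2 scale.

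The 14 d response was compared between the cell types as an interaction in 1 fit over the 22 samples and 26692 genes, namely those listed in both tables that passed the count filter over all samples together. All 65 members were tested in it. The monocyte response exceeded the macrophage response for 23 members and was below it for 2. The median difference was 0.50 on the log2 scale. Of all genes, 19.9% were called with the monocyte response higher and 16.9% lower. Of the 4434 genes above a log2 CPM of 5 in monocytes, 2415 were called higher and 243 lower, with a median of 0.79. The 50 members at that level had 18 and 1, with a median of 0.53. With factors from the genes above a log2 CPM of 5, 1 member was called higher and 19 lower, with a median difference of -0.38. Of all genes, 3.86% were then called higher and 30.0% lower. Of the 4434 genes at the higher level, 429 were called higher and 907 lower, with a median of -0.069. The 50 members at that level had 1 and 15, with a median of -0.35. The direction for the group therefore depends on the scaling. Among the members named by the rule, Snrpf and Hnrnph3 were called in the same direction under both. Snrpf had a difference of 2.06 (SE 0.316, adjusted p = 3.6e-05) with TMM and of 1.22 (adjusted p = 0.00483) with the second factors. In monocytes its level was 25.4, 34.6, 41.5 and 51.9 CPM in controls and 49.0, 62.5, 59.3 and 51.9 CPM at 14 d, with overlap. The log2 fold change there was 0.54 (edgeR adjusted p = 0.196) and was not called, while the fall in macrophages was. Hnrnph3 had a difference of -1.03 (SE 0.378, adjusted p = 0.0359) and of -1.92 (adjusted p = 0.00052), with 9.78, 10.3, 13.8 and 16.5 CPM in control monocytes and 5.52, 11.1, 8.94 and 11.9 CPM at 14 d. Sf3b3, named after its values were seen, also kept its direction, at -0.83 and -1.72. The 2 cell types were counted in separate tables, so a fixed offset between tables drops out of this difference.

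The members shared some features that their selection by symbol did not use. They lie on 17 autosomes and the X chromosome, with 7 each on chromosomes 2, 4 and 7. The 64 tested members had a median of 5125 exonic bases and 9 exon blocks, against 4219 bases and 10 blocks for the protein-coding genes above a log2 CPM of 5 in monocytes. Across these 64 genes, the log2 fold change at 3 d in monocytes fell with exonic length (Spearman's rho = -0.30), with the number of exon blocks (-0.33) and with mean level (-0.46), which is a description over genes that share libraries and are not independent. Over 4374 protein-coding genes above a log2 CPM of 5, the first 2 values were -0.24 and -0.19. The log2 fold changes of the members at 3 d in monocytes and at 14 d in macrophages were unrelated in order (rho = 0.011, n = 64). Several members share sequence with other genes, mostly processed pseudogenes, so that the counting of reads could split them. The share of 100-base sequences found elsewhere was 32.5% for Sf3b4, 31.5% for Hnrnpf, 25.9% for Hnrnpa1, 25.6% for Hnrnpa3 and 12.4% for Hnrnpm.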

How the data were processed

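Read counts per Ensembl gene were used as the authors deposited them, in 1 table per cell type. Per the submitters' processing notes these came from STAR (2.7.2c, 2.7.3a), featureCounts 1.6.3 and GRCm38/mm10, with DESeq2 (1.26.0, 1.28.1) applied by the authors afterwards. The version and strand setting used for each table are not given in the sources used here. Libraries were oligo(dT)-selected and paired-end. Symbols came from GENCODE on GRCm38, matching 55240 and 31059 gene identifiers. The members and gene lists were chosen with earlier results of these data known.

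Genes passing filterByExpr were TMM-normalized and fitted with edgeR 4.0.16 (R 4.3.3, limma 3.58.1), using 1 robust quasi-likelihood fit per cell type over its 3 groups. The interaction was fitted over 22 samples. Benjamini-Hochberg adjustment ran over all genes tested, and calls needed an adjusted p under 0.05 and a fold change above 1.5. Named genes were the 3 of highest level per family, the 3 largest calls per comparison and direction, those not tested and those on the X chromosome. Names outside this rule are given as such, and 1 gene named by it is not reported here. Scalings, filters, DESeq2 1.42.0, omission of each library and a replicate block were alternatives. Scripts were tested on simulated data. Tables used Python 3.11.15, pandas 2.3.3 and SciPy 1.17.1. A library of 4610720 to 28789639 counts puts 3 counts at 0.104 to 0.651 CPM, and counts carry counting error as well as biological spread. Replicate numbers were not treated as pairs, because the deviations of same-numbered libraries from their group means did not correlate above 0.1 in every pair (r from -0.17 to 0.52). The highest values were between control and 14 d monocytes, at 0.089 to 0.52 (mean 0.28). Nothing in the labels says what the numbers stand for.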

Additional observations from a re-analysis of the deposited data

Results flagged for a closer look

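In groups of 4 libraries, 3 values of members in monocytes stood far from the other three of their group, among 128 groups examined, of which chance marks about 1 in 20. Sf3a3 had 56.7 CPM in control replicate 4, against 69.7 to 71.7 CPM in the other controls. Prpf40b had 0.494 CPM in 3 d replicate 2, against 1.67 to 1.74 CPM in the others. Sf3b1 had 467.7 CPM in 14 d replicate 4, against 379 to 389 CPM in the others.

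For 12 of the 31 named members the 14 d response, as a log2 fold change against control, differed between monocytes and macrophages in edgeR's interaction test with TMM factors. Of all genes in that fit, 19.9% were called with the monocyte response higher and 16.9% lower. Some of these members were named for their calls in the same 14 d samples, so nothing is read from the count. The monocyte response was higher for Snrpf by 2.06, for Srsf9 by 1.97, for Hnrnpll by 1.79, for Snrpg by 1.44, for Prpf31 by 1.29, for Prpf18 by 1.08, for Snrpd3 by 1.02, for Srsf3 by 0.93, for Sf3b6 by 0.85, for Snrpe by 0.79 and for Sf3a2 by 0.74. It was lower for Hnrnph3, at -1.03. With factors from the genes above a log2 CPM of 5, Snrpf (1.22) and Hnrnph3 (-1.92) passed the test in the same direction. The other ten lay between -0.12 for Sf3a2 and 1.102 for Srsf9 and did not pass. At 14 d the sex of the mice and the time after tamoxifen cannot be told apart in either cell type.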

How the results depend on the processing

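On the TMM scale, 19 members were called in monocytes at 3 d against control (median -0.44). The count and median were 3 and 0.043 by library size, 2 and -0.037 by upper quartile, 4 and 0.080 with factors from the genes above a log2 CPM of 5, 10 and -0.29 with factors from protein-coding genes, 4 and -0.17 with the reference complexes, 37 and -0.67 with no filter on low counts, 1 and -0.12 with a filter at a log2 CPM above 1, and 10 and -0.31 with DESeq2. A test against a fold change of 1.5 (glmTreat) called 3. The median of all genes above a log2 CPM of 5 moved along, at -0.55 with TMM, -0.062 by library size, -0.80 with no filter, -0.21 with the filter above 1 and -0.42 with DESeq2. On the TMM scale 14.4% of all genes were called lower and 36.8% higher. The counts in this section are therefore not read as results about the members. At 14 d against control the monocyte count of 0 became 2 by upper quartile, with the filter above 1, with only the groups compared and with DESeq2, and 1 with the reference complexes or no filter. For monocytes at 14 d against 3 d (18, median 0.51), these were 1 and 0.13 by library size, 2 and 0.073 by upper quartile, 1 and 0.040 with factors from the genes above 5, 10 and 0.36 with protein-coding genes, 2 and 0.13 with the reference complexes, 34 and 0.66 with no filter, 0 and 0.20 with the filter above 1, 11 and 0.37 with DESeq2, 29 with only the groups compared and 2 with glmTreat.

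In macrophages at 14 d against control (11, median -0.12), the count and median were 20 and 0.33 by library size, 19 and 0.24 by upper quartile, 23 and 0.46 with factors from the genes above 5, 17 and 0.056 with protein-coding genes, 20 and 0.19 with the reference complexes, 24 and -0.32 with no filter, 18 and 0.22 with the filter above 1, and 17 and 0.058 with DESeq2. At 14 d against 3 d (19, median -0.21), the median was 0.22, 0.10, 0.29, -0.036 and 0.21 in the first 5 of these, -0.43 with no filter, 0.066 with the filter above 1 and -0.079 with DESeq2, and the count was 29 with no filter and 3 with glmTreat. For all genes above a log2 CPM of 5 in macrophages at 14 d against control, the median was -0.56 with TMM, -0.13 by library size, -0.77 with no filter and -0.39 with DESeq2. Against 3 d it was -0.50, -0.081, -0.73 and -0.38 in the same order. The scalings differ, by construction, by a nearly equal shift of all genes. The cause of other differences was not tested.

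Omission of 1 library gave 13 to 25 calls and medians of -0.55 to -0.32 in monocytes at 3 d, 0 to 4 and -0.02 to 0.10 at 14 d, and 11 to 30 and 0.38 to 0.57 at 14 d against 3 d. In macrophages it gave 0 to 2 calls and 0.07 to 0.16 at 3 d, 12 to 24 and -0.31 to -0.12 at 14 d, and 18 to 30 and -0.40 to -0.20 at 14 d against 3 d. It gave 20 to 32 for the difference between cell types. The replicate numbers were not taken as pairs. A replicate block gave 19, 0 and 16 calls in the 3 monocyte comparisons and 0, 12 and 19 in those of macrophages. For the difference between cell types it gave 19. Depth limits low genes most in the 14 d macrophage libraries, where 3 counts correspond to up to 0.651 CPM.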
